A study of Mus musculus with 4 samples.

Results

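The 10 genes described here encode the enzymes that make serine from glucose and pass its side carbon into folate metabolism, together with 1 transporter of serine. They are Phgdh, Psat1, Psph, Shmt1, Shmt2, Mthfd1, Mthfd1l, Mthfd2, Aldh1l2 and Slc1a4. They were taken by symbol from the 37620 genes of a raw RNA-seq count table of mouse embryonic stem cells (mESCs), and all 10 had a row and passed the filter on low counts, as did 16264 genes in all. The set was drawn up knowing that Phgdh and Psat1 had been seen higher in the mutant line, so the comparison between the lines is given for these genes as a description, without p-values.

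The libraries came from the CTCF-EGFP-AID mESC line, in which endogenous CTCF carries a degron and a fluorescent tag and is removed by auxin. WT_CTCF cells received a vector with wild-type CTCF, and MUT_CTCF cells received a vector with CTCF mutated at T668, the residue that carries O-GlcNAc. Both lines thus share the tagged endogenous alleles, exposure to auxin, an exogenous CTCF transgene and hygromycin selection. Each line was a picked clone chosen for a level of exogenous CTCF close to the endogenous one, so a difference between the lines cannot be told apart from a difference between 2 clones. There were 2 libraries per line, described in the study as biological replicates, and the labels give no age or time for them. The study's methods give 2 days of auxin to degrade endogenous CTCF, without naming the time for the RNA-seq libraries. The cells grew on gelatin in serum and LIF, in a medium supplemented with glutamine, a nucleoside mix and nonessential amino acids. The nonessential amino acids supply serine and glycine from outside.

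In this pathway, Phgdh diverts a glycolytic intermediate into serine synthesis, Psat1 transfers an amino group to it, and Psph releases serine. Serine hydroxymethyltransferases then split serine into glycine and a carbon unit bound to folate, and the Mthfd enzymes convert that unit between its forms in the mitochondria and in the cytosol. The units serve purine and thymidine synthesis and the methyl cycle, for which rapidly dividing cells such as mESCs have a high demand. The stress-responsive factor ATF4 is a known activator of several of these genes.

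Total counts per library lay between 40524694 and 40977464, and the scaling factors between 0.994 and 1.01. Levels are given as counts, or as counts scaled to library size (CPM) with the libraries scaled by edgeR's TMM method, with the SD over 2 libraries. A log2 fold change is that of MUT_CTCF over WT_CTCF from edgeR's quasi-likelihood fit across all tested genes, with its standard error (SE). A gene is called higher or lower when its Benjamini-Hochberg adjusted p, taken over the 16264 tested genes, is under 0.05, and an exact permutation test of 2 libraries against 2 could not go below p = 0.33. Counts per gene in bulk RNA cannot separate fewer cells expressing a gene from less RNA of it per cell.

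Serine synthesis opens with Phgdh (ENSMUSG00000053398), the 3-phosphoglycerate dehydrogenase and entry step of the pathway, at chr3:98117093-98143913 on the minus strand of mm9. It had 6725 and 6478 counts in WT_CTCF and 7872 and 7801 in MUT_CTCF. Both mutant libraries lay above both wild-type libraries, by more than the gap between replicates. The level was 162 ± 4.20 CPM in WT_CTCF and 192 ± 0.595 CPM in MUT_CTCF (SD, n = 2), a log2 fold change of 0.24 (SE 0.037, 95% interval 0.167 to 0.317) or 1.18-fold.

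The absolute level of Phgdh is uncertain, because its mRNA has near-identical intronless copies in the genome and only uniquely mapped reads were counted. Aligned to mm9, the 1893-base transcript matched chr8:78235361-78237188, annotated as the pseudogene Gm7901, at 98.8% identity, and an unannotated stretch at chr7:144002500-144004329 at 97.6%. In all, 88.3% of the transcript lay in runs of at least 50 identical bases shared with a copy, where a short read can have more than 1 place. Gm7901 itself had 26 and 41 counts in WT_CTCF and 37 and 47 in MUT_CTCF, far below Phgdh in every library. The part played by lost reads was not tested.

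Psat1 (ENSMUSG00000024640; chr19:15979168-16021827, minus strand), the phosphoserine aminotransferase, had 14288 and 14170 counts in WT_CTCF and 16240 and 15671 in MUT_CTCF. Again the groups did not overlap. The level was 350 ± 1.86 CPM in WT_CTCF and 390 ± 6.13 CPM in MUT_CTCF (SD, n = 2), a log2 fold change of 0.16 (SE 0.030) or 1.12-fold. Psat1 has more diverged copies, which shared 4.51% of its transcript in such identical runs.

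Psph (ENSMUSG00000029446; chr5:130271434-130293129, minus strand), the phosphatase that finishes serine synthesis, did not separate the lines. Its counts were 1474 and 1371 in WT_CTCF and 1607 and 1418 in MUT_CTCF, so the lower mutant library fell between the wild-type libraries. The log2 fold change was 0.082 (SE 0.073, 95% interval -0.064 to 0.229), and without MUT_CTCF replicate 1 it was -0.00045. An equal change of all 3 enzymes was therefore neither shown nor tested.

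Slc1a4 (ENSMUSG00000020142; chr11:20202183-20232716, minus strand), also known as ASCT1, exchanges serine, alanine and other small neutral amino acids across the plasma membrane. It had 1858 and 1853 counts in WT_CTCF and 2422 and 2345 in MUT_CTCF, with both mutant libraries above both wild-type libraries. The level was 45.6 ± 0.0624 CPM in WT_CTCF and 58.3 ± 0.778 CPM in MUT_CTCF (SD, n = 2). Its log2 fold change of 0.36 (SE 0.061, 95% interval 0.234 to 0.477), or 1.28-fold, was the highest among the members called higher.

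The serine hydroxymethyltransferases exist as a cytosolic enzyme, Shmt1, and a mitochondrial one, Shmt2. Shmt1 (ENSMUSG00000020534; chr11:60601606-60625220, minus strand) had 14459 and 14636 counts in WT_CTCF and 14064 and 13798 in MUT_CTCF. Shmt2 (ENSMUSG00000025403; chr10:126954195-126959491, minus strand) had 12919 and 12595 counts in WT_CTCF and 13379 and 14002 in MUT_CTCF. Thus for Shmt1 both mutant libraries were the lower, and for Shmt2 both were the higher. The log2 fold change was -0.068 (SE 0.030) for Shmt1 and 0.096 (SE 0.032) for Shmt2, and neither gene was called. That of Shmt2 became 0.14 when MUT_CTCF replicate 1 was left out and 0.052 when MUT_CTCF replicate 2 was. With the replicate number as a block, Shmt2 was called higher.

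Exons of both genes are shared in part with a neighbour on the opposite strand, and the strand setting of the counting is not given in the sources used here. Shmt1 overlaps Smcr8 over 184 exonic bases, 4.74% of its exon length, and Smcr8 had a log2 fold change of -0.042 (SE 0.048). Shmt2 overlaps Ndufa4l2, a gene known to respond to hypoxia, over 14 exonic bases, 0.614% of its exon length. Ndufa4l2 had 78 and 75 counts in WT_CTCF and 293 and 281 in MUT_CTCF, with a log2 fold change of 1.90 (SE 0.200, adjusted p = 2.82e-10 by edgeR), few counts beside those of Shmt2. Shmt2 also has a diverged copy, the pseudogene Gm15544 on chromosome 7, with 81.9% identity and 8.73% of the transcript in runs of at least 50 identical bases, and at most 8 counts in a library.

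Mthfd1 (ENSMUSG00000021048; chr12:77356219-77420807, plus strand), the trifunctional cytosolic enzyme, had 20796 and 20895 counts in WT_CTCF and 20420 and 20313 in MUT_CTCF. Both mutant libraries were lower, but the log2 fold change was only -0.039 (SE 0.027, 95% interval -0.094 to 0.016) and the gene was not called.

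The mitochondrial members of the same family lay in the other direction. Mthfd2 (ENSMUSG00000005667; chr6:83255685-83267600, minus strand), the mitochondrial dehydrogenase and cyclohydrolase, had 3719 and 3604 counts in WT_CTCF and 4333 and 4313 in MUT_CTCF. Its level was 89.9 ± 1.95 CPM in WT_CTCF and 106 ± 0.660 CPM in MUT_CTCF (SD, n = 2), a log2 fold change of 0.23 (SE 0.047). Mthfd1l (ENSMUSG00000040675; chr10:6179460-6373423, minus strand), the mitochondrial synthetase that releases formate, had 4141 and 4122 counts in WT_CTCF and 5189 and 4593 in MUT_CTCF. Both genes were 1.18-fold higher in MUT_CTCF and their groups did not overlap. The mutant libraries of Mthfd1l differed from each other by 11.5%, so its log2 fold change of 0.24 (SE 0.047) became 0.16 when MUT_CTCF replicate 1 was left out and 0.31 when the other mutant library was.

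Aldh1l2 (ENSMUSG00000020256; chr10:82950195-82996885, minus strand), a mitochondrial enzyme that oxidises the folate-bound unit to carbon dioxide, was the weakest of the set in expression. It had 157 and 122 counts in WT_CTCF and 180 and 218 in MUT_CTCF, with both mutant libraries above. Its log2 fold change of 0.51 had the widest error of the 10 genes (SE 0.20, 95% interval 0.105 to 0.910), its replicates differed by 28.6% in WT_CTCF and 22.8% in MUT_CTCF, and it was not called. The value became 0.70 when WT_CTCF replicate 1 was left out and 0.34 when WT_CTCF replicate 2 was.

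**Figure D1:**
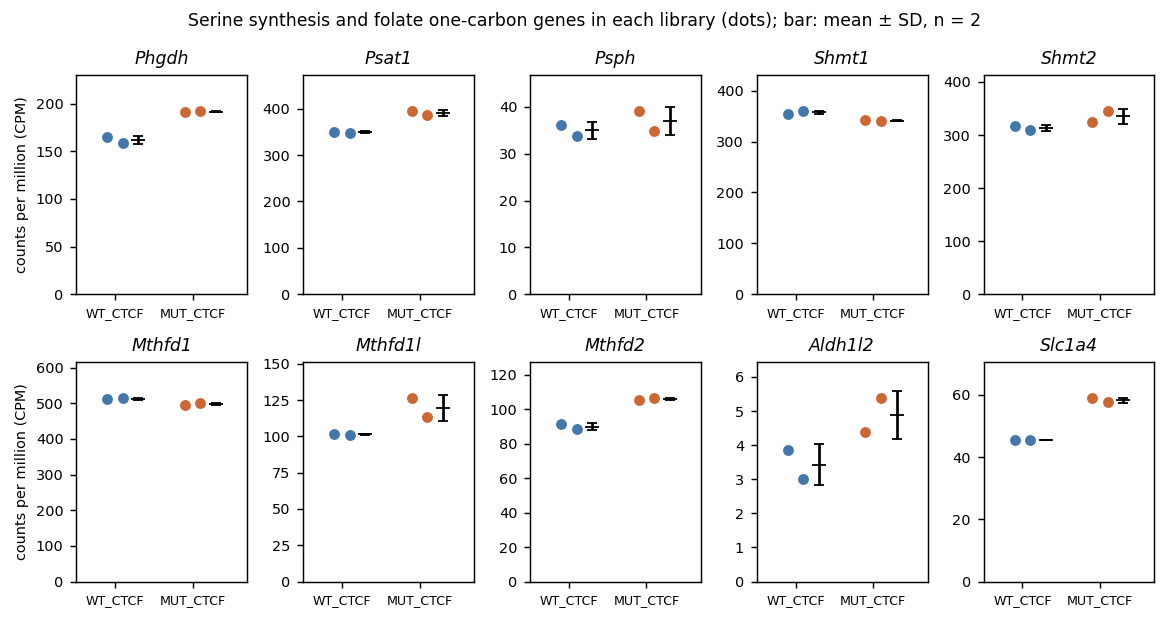
Level of each of the 10 genes in CPM (vertical axes start at 0), with a dot for each library and a bar for the mean ± SD of the 2 libraries of WT_CTCF (blue) and MUT_CTCF (orange). Both orange dots lie above both blue dots for 7 genes and below for Shmt1 and Mthfd1, and the groups overlap for Psph.

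Counted over the 10 genes, 5 were called higher in MUT_CTCF, namely Phgdh, Psat1, Mthfd1l, Mthfd2 and Slc1a4. Over all tested genes 1.56% were called higher and 3.17% in either direction, and since the set was chosen on this comparison nothing is read from the contrast between the 2 shares. None was called lower by edgeR's quasi-likelihood test (0 of 10, beside 1.61% of all tested genes), and edgeR's exact test also gave 0. DESeq2 gave 0 as well, among the 9 members to which it gave an adjusted p. At an unadjusted p under 0.05 by the quasi-likelihood test, 7 members lay higher and 1 lower. The share of all tested genes at that threshold was not taken, and nothing is read from these counts either. Both mutant libraries were above both wild-type libraries for 7 genes and below them for 2, where the first pattern was met by 22.3% of all tested genes and the second by a further 22.3%. The median log2 fold change of the set was 0.20, beside 0.0034 for all tested genes, and its summed level was 1977 and 1961 CPM in WT_CTCF and 2082 and 2080 CPM in MUT_CTCF. The choice of the set bears on these separations, medians and sums too, and nothing is read from them.

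These differences were small, with the called genes between 1.12-fold and 1.28-fold. None of the 10 met the study's own criterion (a fold change above 2 with p under 0.05 before adjustment), which 1.3% of all tested genes met. The 5 calls also fell to 0 without a filter on low counts, and to 0 when either MUT_CTCF library was left out, settings in which 26 and 0 genes of the whole table were called higher.

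**Figure D2:**
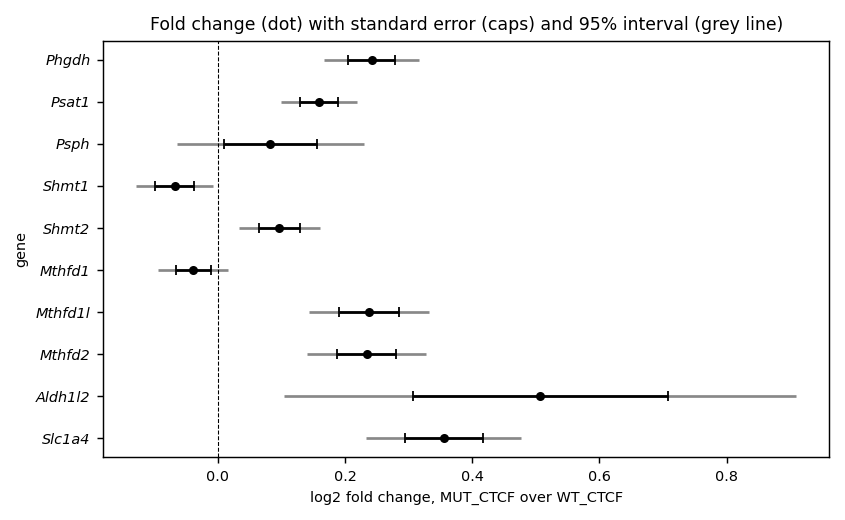
Log2 fold change of MUT_CTCF over WT_CTCF for each gene (dot) with its standard error (capped black bar) and 95% interval (grey line), 2 libraries per line. Aldh1l2 has the widest interval, 0.105 to 0.910, and the intervals of Psph and Mthfd1 include 0.

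Compared with each other per length, as CPM per kilobase of exon, the 10 genes spanned a wide range. The length was the union of a gene's annotated exons, which can exceed that of any single transcript. It was 4254 bases for Psat1, whose longest protein-coding transcript has 2617, and 2486 for Phgdh, whose longest has 1893. Order, overlaps and ratios between genes therefore depend on the length used. Mthfd1 came first, with 149 to 154 CPM per kilobase over the 4 libraries, and Shmt2 second with 136 to 151, so that these neighbours overlapped. Shmt1 (87.5 to 92.6) and Psat1 (81.9 to 92.8) also overlapped. Phgdh followed at 64.0 to 77.3, subject to the copies described above, and then Mthfd2 at 32.5 to 39.0, Mthfd1l at 22.8 to 28.4, Psph at 18.5 to 21.5 and Slc1a4 at 11.6 to 15.0 CPM per kilobase, each without overlap with the next.

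Aldh1l2 stood far below the rest at 0.40 to 0.72 CPM per kilobase. In WT_CTCF cells 97.6% of all tested genes had a lower level per kilobase than Mthfd1, 93.4% a lower level than Phgdh and 18.8% a lower level than Aldh1l2. By these lengths the 3 enzymes of serine synthesis were not at equal RNA levels. The Psat1 level per kilobase was 4.14 and 4.42 times that of Psph in WT_CTCF and 4.32 and 4.72 times in MUT_CTCF. These ratios overlapped between the lines.

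**Figure D3:**
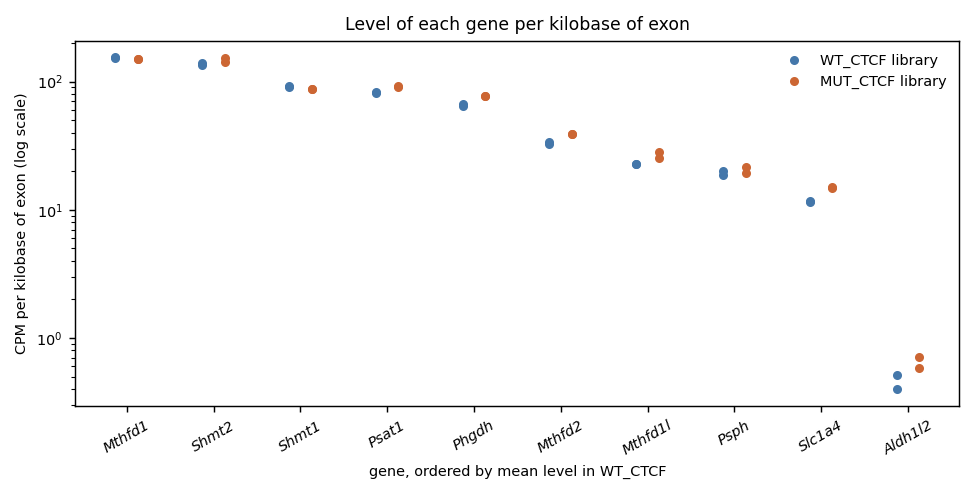
Level of each gene in CPM per kilobase of exon (log axis), with a dot for each WT_CTCF (blue) and MUT_CTCF (orange) library and the genes ordered by their mean in WT_CTCF. Levels run from 154 for Mthfd1 down to 0.40 for Aldh1l2.

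Several of these reactions have a cytosolic and a mitochondrial enzyme, and the balance between them was followed within each library, as a description. Shmt2 made up 60.3% and 59.4% of the summed Shmt1 and Shmt2 level per kilobase in WT_CTCF, and 61.8% and 63.3% in MUT_CTCF. Aldh1l2 made up 7.05% and 5.74% of the sum with its cytosolic relative Aldh1l1 in WT_CTCF, and 8.15% and 9.18% in MUT_CTCF. For both pairs the mitochondrial share was higher in each mutant library than in each wild-type library. Mthfd2 accounted for 98.2% and 99.2% of the sum with its relative Mthfd2l in WT_CTCF and for 98.8% and 98.6% in MUT_CTCF, so that the lines overlapped there.

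Summed over the set, the mitochondrial genes (Shmt2, Mthfd2, Mthfd1l and Aldh1l2) stood at 0.800 and 0.775 times the cytosolic genes (Shmt1 and Mthfd1) in WT_CTCF, and at 0.886 and 0.910 times in MUT_CTCF. The mean ratio was 0.788 ± 0.018 in WT_CTCF and 0.898 ± 0.017 in MUT_CTCF (SD, n = 2), without overlap. This ratio restates the fold changes above and is no separate evidence, and RNA levels say nothing of the amount or activity of the enzymes.

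**Figure D4:**
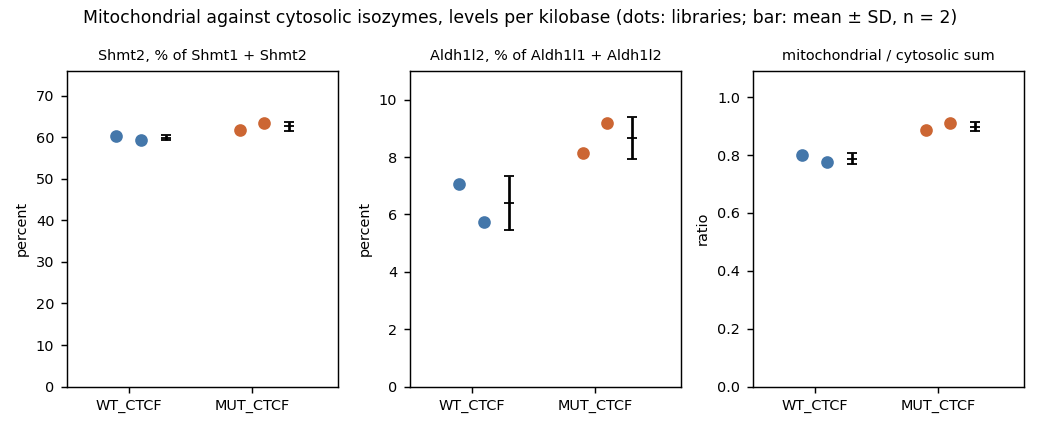
Share of Shmt2 in the Shmt1 and Shmt2 sum and of Aldh1l2 in the Aldh1l1 and Aldh1l2 sum (percent), and the ratio of the summed mitochondrial to the summed cytosolic genes, all from levels per kilobase of exon, with a dot for each library and a bar for the mean ± SD of 2 libraries. In each panel both MUT_CTCF dots lie above both WT_CTCF dots, and the ratio goes from 0.788 to 0.898. The Mthfd2 share, for which the lines overlapped, is not drawn.

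The neighbouring reactions were examined through 5 lists of 58 further genes, of which 55 could be tested. Of these, 3 rose in MUT_CTCF by edgeR's quasi-likelihood test, beside the 1.56% of all tested genes called higher. By that test 0 fell, as by edgeR's exact test and by DESeq2, whose own filter left 35 of the 55 with an adjusted p. At an unadjusted p under 0.05 by the quasi-likelihood test, 6 lay higher, the 3 included, and 4 lower. The share of all tested genes at that threshold was not taken, so nothing is read from such counts, here or list by list. The median log2 fold change of the 55 was -0.00024, with 27 above 0.

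The rest of the folate cycle, which includes Tyms of thymidine synthesis, the folate carrier Slc19a1 and the mitochondrial carrier Slc25a32, had 0 of 15 genes past the test in either direction by edgeR's quasi-likelihood test, with 1 gene at an unadjusted p under 0.05. Its median log2 fold change was -0.024 and its range -0.32 to 0.24. Glycine cleavage and threonine breakdown, which also feed carbon units to folate, likewise had 0 of 6 past the test, with 1 at an unadjusted p under 0.05, a median of -0.0063 and a range of -0.065 to 0.086. The methionine cycle and transsulfuration, which take up the methyl unit, had 0 of 13 past the test and 2 at an unadjusted p under 0.05, with a median of -0.0082. Values there ran from -0.19 to 1.02, the highest being that of Gnmt, a glycine methyltransferase with 4 and 19 counts in WT_CTCF and 31 and 16 in MUT_CTCF. Calls by edgeR's exact test were 0 in these 3 lists as well. DESeq2 also called 0, but it could not call genes that its own filter left without an adjusted p.

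Beside the 1.56% of all tested genes called higher, 1 of 15 tested genes that use or carry serine rose. It was Slc1a5, also known as ASCT2, a transporter of glutamine and other neutral amino acids and the nearest relative of Slc1a4 in this list. Its level was 71.0 and 72.6 CPM in WT_CTCF and 89.3 and 87.5 CPM in MUT_CTCF, with no overlap. The log2 fold change was 0.30 (SE 0.051, adjusted p = 6.17e-05 by edgeR, and from 9.9e-07 to 0.387 over the alternatives). The 14 others of the list did not pass and lay between -0.26 and 0.64, with a list median of 0.018. The remaining 3 genes were too low to test, Sds with at most 5 counts in a library, Slc7a10 with at most 5 and Slc38a5 with at most 16.

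ATF4 and its close targets gave 2 rises among 6 tested genes, beside 1.56% of all tested genes called higher. This list was drawn up with earlier results of these data known, so nothing is read from that count. Chac1, a glutathione-degrading enzyme of the stress response, had 7.02 and 5.23 CPM in WT_CTCF and 11.3 and 13.3 CPM in MUT_CTCF. Its log2 fold change was 1.00 (SE 0.141, adjusted p = 1.5e-06 by edgeR, and from 1.21e-10 to 0.477 over the alternatives). Trib3, a pseudokinase of the same response, had 25.4 and 22.7 CPM in WT_CTCF and 34.2 and 31.1 CPM in MUT_CTCF, with a log2 fold change of 0.44 (SE 0.082, adjusted p = 0.000308 by edgeR, and from 6.5e-06 to 0.484 over the alternatives). For both, every mutant library was above every wild-type library.

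The other 4 genes of that list did not pass the test. Atf4 itself had 299 and 292 CPM in WT_CTCF and 294 and 297 CPM in MUT_CTCF. Its log2 fold change was 0.00048 with a 95% interval of -0.063 to 0.064. ATF4 is known to be controlled mainly in translation, which RNA counts do not measure, and its part in these values was not tested. Asns, the asparagine synthetase and a widely used ATF4 target, had a log2 fold change of 0.017 with an interval of -0.029 to 0.063. Those of Ddit3 and Sesn2 were 0.21 (SE 0.147) and -0.085 (SE 0.032).

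**Figure D5:**
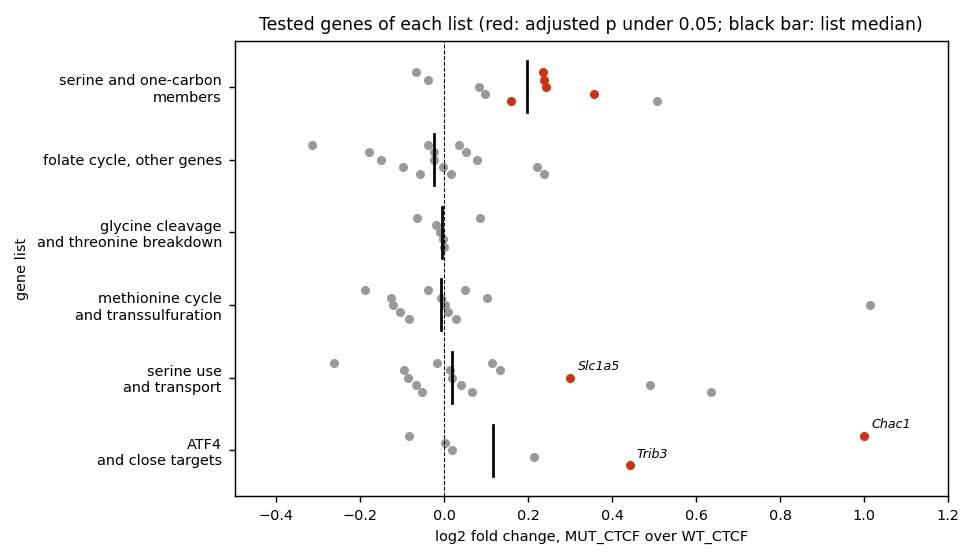
Log2 fold change of MUT_CTCF over WT_CTCF for every tested gene of the set and of the 5 further lists (dots; red at an adjusted p under 0.05, grey otherwise; vertical offsets only separate the dots), with a black bar at each list's median. The medians lie at 0.20 for the set and between -0.024 and 0.12 for the other lists, and the red dots outside the set are Slc1a5, Trib3 and Chac1. The set was chosen on this comparison, so nothing is read from its median beside the others.

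Promoters of the set were read for 3 motifs from RefSeq sequences of GRCm38.p6, a later build than that of the counts, which cover 250 bases before and 50 after each start site. Of the 10 genes, 9 had an entry and Aldh1l2 had none. The motif TGATGNAA, bound by ATF4 with a C/EBP partner, was found on either strand in 1 of the 9, Slc1a4, and in 3.97% of 32851 promoters. The E-box CACGTG, bound by MYC, was found in none of the 9 and in 7.15% of all promoters. Its shorter relative ACGTG, the core of the hypoxia response element, which every CACGTG also contains, was found in Psat1, Psph and Mthfd1l and in 19.6% of all promoters.

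The Slc1a4 promoter is printed because Slc1a4 had the highest fold change among the called members and the only TGATGNAA match among them, and windows around the match are printed for the ATF4 targets Chac1, Trib3 and Asns, of which the first pair rose and Asns did not pass. All are written 5′ to 3′ on the gene's strand with the match in capitals, which reads TGATGNAA on the printed strand for Asns and on the opposite strand for the other genes. The match begins 4 bases before the start site in Slc1a4, 193 before in Chac1, 23 before in Asns and 14 after in Trib3. Among the other genes of the ATF4 list, Atf4 had a promoter entry without this match, and the promoters of Ddit3 and Sesn2 were not read. Slc1a5, which also rose, had no entry. A match is a description of letters, and binding was not measured.
Slc1a4, chr11:20332664-20332963, minus strand: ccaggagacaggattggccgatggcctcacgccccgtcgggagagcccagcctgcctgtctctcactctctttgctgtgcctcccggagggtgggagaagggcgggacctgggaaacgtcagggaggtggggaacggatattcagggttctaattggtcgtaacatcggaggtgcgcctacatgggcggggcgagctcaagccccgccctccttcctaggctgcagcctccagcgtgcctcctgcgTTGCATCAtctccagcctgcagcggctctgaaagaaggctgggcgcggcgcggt
Chac1, chr2:119351023-119351082, plus strand: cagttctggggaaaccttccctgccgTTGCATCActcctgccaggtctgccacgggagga
Trib3, chr2:152344013-152344072, minus strand: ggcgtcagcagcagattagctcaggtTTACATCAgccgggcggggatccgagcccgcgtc
Asns, chr6:7693199-7693258, minus strand: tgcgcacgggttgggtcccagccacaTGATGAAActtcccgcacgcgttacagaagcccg

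The label of the cells was checked against markers. All 9 embryonic stem cell markers with a row were expressed, with a summed level of 6261 to 6319 CPM in WT_CTCF and 6229 to 6230 CPM in MUT_CTCF. Of these, Sox2 rose by 0.095 on the log2 scale while Utf1 and Dppa5a fell by 0.21 and 0.099 (edgeR's quasi-likelihood test, adjusted p = 0.0358, 0.00499 and 0.0157). At an unadjusted p under 0.05 by that test, 2 of the 9 lay higher and 4 lower, the called genes included. The share of all tested genes at that threshold was not taken, for these or for the markers below. Markers of other cell types were far lower and 0 of them passed the test. Primitive endoderm markers summed to 11.2 and 12.9 CPM in WT_CTCF and 13.5 and 15.1 CPM in MUT_CTCF, with Sox7 at no more than 4 counts. Of these, 2 of 4 tested genes were higher at an unadjusted p under 0.05, Gata6 and Sox17, with log2 fold changes of 0.95 (SE 0.30) and 0.75 (SE 0.33). Gata4 and Dab2 had 0.30 (SE 0.20) and -0.21 (SE 0.18). The part of these markers in the results was not tested. Fibroblast markers summed to between 45.0 and 51.7 CPM, mesoderm markers to between 13.5 and 15.7 CPM and ectoderm markers to at most 0.462 CPM, with Fgf5 at 0 in all libraries, and none of these had an unadjusted p under 0.05.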

How the data were processed

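RNA-seq was analysed from 2 WT_CTCF and 2 MUT_CTCF libraries. The authors trimmed reads with Trim Galore 0.4.4, used STAR to align them to mm9, counted the uniquely mapped reads of each gene with HTSeq-count 0.9.1 and deposited these counts unnormalized. Their strand setting is not given in the sources used here. The authors' own edgeR table, which holds fold changes and p-values, was not used. The counts were tested with edgeR 4.0.16 in R 4.3.3 (filterByExpr with a minimum count of 10, TMM, glmQLFit and glmQLFTest on condition, Benjamini-Hochberg adjustment over 16264 genes). The common dispersion was 0.00220, depth was nearly equal between libraries, and genes with few counts were measured least precisely. The fit was tested on simulated data. Gene models, exon lengths and positions came from GENCODE M1 (mm9), which named 37205 of 37620 gene IDs, and copies of transcripts were found with minimap2 2.31.

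The 10 genes and the other lists were chosen with earlier results of these data known. All 10 genes were named, and from each other list every gene with an adjusted p under 0.05 (at most 5), with any gene whose exons overlap a member's. Gnmt, the untested genes, the genes cited for a list's role and the other ATF4 targets were named after their values were seen. Alternatives were other scalings, filters and tests (DESeq2 1.42.0, edgeR's exact test), a replicate block, each library left out, and the study's criterion. Isozyme shares without gene length were added after seeing the data. The plan named only the Shmt2 and Mthfd2 shares. The Aldh1l2 share, the mitochondrial to cytosolic ratio and the Psat1 to Psph ratio were outside it. Protein sequences were not analysed here.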

Additional observations from a re-analysis of the deposited data

How the results depend on the processing

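The 5 members called higher were the same 5 genes with DESeq2's size factors, with library size only, with the DESeq2 test, with edgeR's exact test and with at least 10 reads in every library. Without a filter on low counts, 0 were called, and in the whole table calls went from 253 higher and 262 lower to 26 and 3. The study's criterion gave 0. Leaving out 1 library gave 0 to 5 members, with 4 without WT_CTCF replicate 2 (Mthfd2 lost) and 0 without either MUT_CTCF library, where 0 genes of the whole table were called in either direction. In these fits the lone library is assumed to vary like the other group. The cause of these losses was not tested. No member and no other pathway gene was called lower under any setting.

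Of the 3 other pathway genes that rose, 0 were called without a filter (adjusted p 0.0701 for Slc1a5, 0.108 for Chac1 and 0.167 for Trib3), 1 by the study's criterion (Chac1) and 0 to 3 with a library left out, 0 without either MUT_CTCF library. DESeq2 called 1, Slc1a5, and gave no adjusted p to Chac1 and Trib3, since its own filter left 5896 genes with one, among them 9 members and 35 other pathway genes. Over single genes, 113 of 140 alternative values kept direction and call, 25 lost the call, 1 gained it and 1 reversed, the log2 fold change of Psph without MUT_CTCF replicate 1 (-0.00045, against 0.16 without MUT_CTCF replicate 2).

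With CPM not divided by length, 3 of 10 members kept their rank, and the WT_CTCF share became 46.7% for Shmt2 and 10.2% for Aldh1l2. Scaling by library size only gave 260 higher and 152 lower calls in the whole table. The replicate block called 6 members higher, adding Shmt2, and the same number of other pathway genes (3), with 326 higher and 372 lower in the whole table. Deviations of same-numbered libraries correlated at -0.019 over the tested genes. Counting noise in low genes can hide a shared effect, so this value cannot decide whether same-numbered libraries were paired. Depth limits Aldh1l2 most, at 122 to 218 counts.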
